A study of Mus musculus with 12 samples.

Results

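The 10 genes described here handle vitamin D, phosphate and the hormone axis of FGF23 and Klotho, and were followed in mouse kidneys with and without ischemia-reperfusion injury (IRI). They are Cyp24a1, Cyp27b1, Vdr, Kl, Fgfr1, Pth1r, Slc34a1, Slc34a3, Slc20a1 and Slc20a2. Probes were taken by gene name from the scanner files, leaving out control spots, which gave 18 of 56605 probes for these 10 genes. Of these probes 17 passed the filter on dim signal, and every one of the 10 genes is among the 25947 genes tested. The set was chosen by the measured values of Cyp24a1, which stood out when the IRI responses of the genotypes were compared. The values of Cyp24a1 over the groups are therefore a description here, with no test.

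Expression was measured on 12 one-colour Agilent arrays, each holding the kidney RNA of a male mouse on a C57/6J background, with 3 independent mice per group. The groups were Jaml knockout mice 24 h after IRI (KO IRI), Jaml knockout mice after a sham operation (KO sham), wild-type mice 24 h after IRI (WT IRI) and wild-type mice after a sham operation (WT sham). IRI closes the blood supply of both kidneys for a time and then restores it, and the series text gives 40 min of clamping where the protocol text gives 30 min of ligation. The series text describes pentobarbital sodium as the anaesthetic and records that loss of Jaml, a junctional adhesion molecule-like protein, was checked on protein. How the allele was made, whether the deletion reaches every cell type and the age of the mice are not given in the sources used here.

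Vitamin D becomes an active hormone in the proximal tubule, where Cyp27b1 adds the last hydroxyl group and Cyp24a1 breaks the hormone down. The active hormone binds the receptor Vdr, and Cyp24a1 is itself a classic target of that receptor. FGF23, a hormone made mainly in bone, binds Fgfr1 together with Klotho (Kl) in the kidney. It lowers the sodium-phosphate cotransporters Slc34a1 and Slc34a3 of the proximal tubule brush border, represses Cyp27b1 and induces Cyp24a1, while parathyroid hormone acts through Pth1r.

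The following probes carry the main results, and the first 30 bases of each are shown 5′ to 3′ with the mm9 interval of the whole probe, as the files give it. The Kl probes are both shown because the second was designed to an mRNA for the secreted form of Klotho. The exon or UTR in which a probe lies was not determined here.
Cyp24a1 probe, chr2:170308865-170308924, minus strand: tctttattcaaagtgatgattgtaacatat
Kl probe, chr5:151796302-151796361, plus strand: ggagaatattgccagaacagctcaaaactg
Kl probe of the secreted form, chr5:151789486-151789545, plus strand: ctgttattctgggatggttctggtagagaa
Slc34a1 probe, chr13:55515201-55515259, plus strand: aaatacatgcttaggtactgagcctgtgtg
Slc34a3 probe, chr2:25084438-25084497, minus strand: taagacagaggagcagggctccacacggat

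Promoter windows are shown for Kl, Slc34a1 and Slc34a3, the 3 genes that fell after IRI in both genotypes, as the 250 bases before the RefSeq start site on GRCm38.p6. Capitals mark the half-site GTTAAT of the tubule factor HNF1 in the Slc34a1 window and the nuclear receptor half-site AGGTCA in the Slc34a3 window, either of which may be read on the other strand.
Kl, chr5:150952357-150952606, plus strand: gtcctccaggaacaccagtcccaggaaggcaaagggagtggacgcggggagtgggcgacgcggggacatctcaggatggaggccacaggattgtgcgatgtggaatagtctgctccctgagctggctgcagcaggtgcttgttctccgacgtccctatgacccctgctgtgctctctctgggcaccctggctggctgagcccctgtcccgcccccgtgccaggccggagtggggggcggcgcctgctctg
Slc34a1, chr13:55399398-55399647, plus strand: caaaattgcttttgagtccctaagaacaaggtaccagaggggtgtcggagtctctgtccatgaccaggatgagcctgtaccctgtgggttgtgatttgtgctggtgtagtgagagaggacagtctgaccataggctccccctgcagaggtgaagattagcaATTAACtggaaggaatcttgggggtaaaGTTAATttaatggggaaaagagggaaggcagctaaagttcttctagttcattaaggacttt
Slc34a3, chr2:25234235-25234484, minus strand: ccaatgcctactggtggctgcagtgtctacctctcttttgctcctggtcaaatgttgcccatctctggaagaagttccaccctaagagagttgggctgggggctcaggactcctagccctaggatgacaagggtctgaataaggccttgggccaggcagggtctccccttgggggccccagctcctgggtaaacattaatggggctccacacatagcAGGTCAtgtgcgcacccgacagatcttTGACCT

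The Slc34a1 window holds GTTAAT at -61 and, on the other strand, at -89 from the start site, and the Slc34a3 window holds AGGTCA at -33 and, on the other strand, at -6. Windows were listed for 7 of the 10 genes, 10 windows in all. GTTAAT was in 1 of these 10 windows and in 6.43% of 32851 windows of all genes. AGGTCA was in 3 of the 10, the others being Slc20a1 windows, and in 14.0% of all. The paired element AGGTCANNNAGGTCA, to which the vitamin D receptor can bind, was in 0 of the 10 and in 0.00609% of all. The 2 half-sites do not overlap each other, and AGGTCANNNAGGTCA contains AGGTCA. A match in these letters is a description of the window and shows no binding.

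All levels below are log2 processed signal minus the 75th percentile of the array, so that 0 is the 75th percentile. Between 62.9% and 68.1% of probes were well above background per array and none was saturated. The targeted gene Jaml read -3.54, -2.59 and -3.18 on the KO sham arrays, against -0.26, -0.26 and -0.44 on the WT sham arrays (-2.79 ± 0.56, SE; limma adjusted p = 0.0152), and its difference after IRI did not pass (-1.57 ± 0.56, adjusted p = 0.153). The sources used here do not say if its probe lies in the deleted part. All KO arrays lie on 1 slide and all WT arrays on another, so genotype and slide cannot be told apart, while IRI and sham arrays of a genotype share a slide. WT IRI replicate 1 stood apart, deviating from the mean of its group by 0.579 (root mean square, log2), where the other arrays deviated by 0.205 to 0.433. Results of the 10 genes are given without it where a call or a sign changed. All 10 proximal tubule markers, including Lrp2, Cubn and Slc5a2, were measured, as the kidney label requires, and parathyroid hormone itself (Pth) did not pass the filter.

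**Figure D1:**
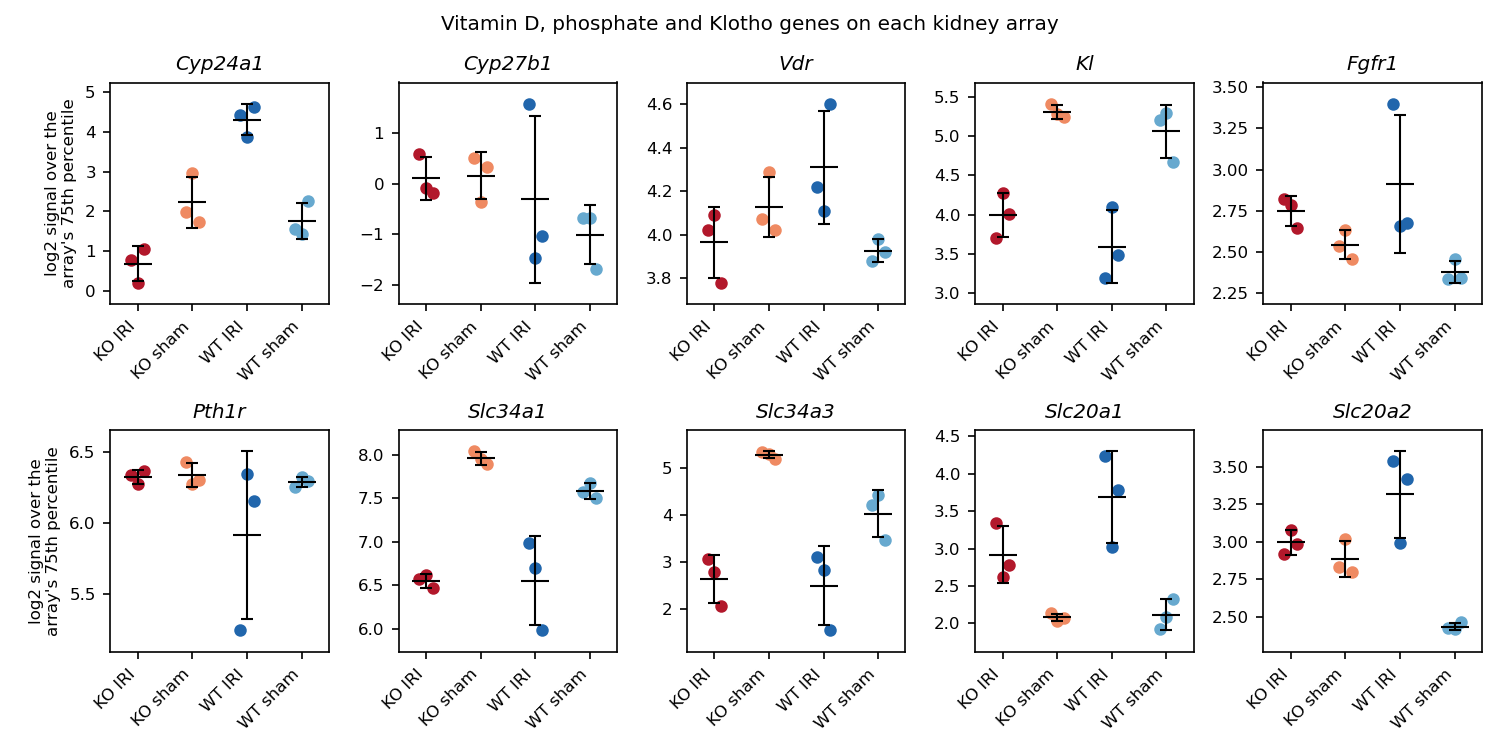
Level of each of the 10 genes on each array (log2 signal over the 75th percentile of the array) by group, with 3 points per group, the mean as a bar and the SD as whiskers; each panel has its own scale. Cyp24a1 lies between 3.87 and 4.63 on the WT IRI arrays and between 0.20 and 1.06 on the KO IRI arrays, while Kl, Slc34a1 and Slc34a3 are lower on all IRI arrays than on the sham arrays of the same genotype.

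After IRI the kidneys of both genotypes had less Kl and less of both brush border phosphate cotransporters, Slc34a1 and Slc34a3. The widely expressed phosphate transporters Slc20a1 and Slc20a2 rose in WT kidneys. In KO kidneys neither passed the test, though for Slc20a1 every KO IRI array was above every KO sham array (0.84 ± 0.29). Cyp24a1, the vitamin D degrading enzyme, was 2.92-fold lower in KO IRI than in KO sham kidneys, and 5.87-fold higher in WT IRI than in WT sham kidneys. Cyp27b1, Vdr, Fgfr1 and Pth1r did not pass in either genotype.

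Of the 9 genes tested, 0 were higher and 3 lower in KO IRI than in KO sham kidneys (limma, adjusted p under 0.05). In that comparison 6.16% of all genes were called, 2.10% higher and 4.05% lower. In WT IRI against WT sham kidneys 2 were higher and 3 lower, where 12.0% of all genes were called, 6.08% higher and 5.90% lower. Injured and sham kidneys had no overlapping values for 5 of the 9 genes in KO (35.7% of all genes) and for 7 of the 9 in WT (32.3% of all genes). The median log2 fold change of the 9 was -0.05 in KO and 0.38 in WT, against -0.08 and -0.01 over all genes. Among all called genes in KO, 34.2% were higher, and 49.6% with quantile normalization. The WT count was 3 without WT sham replicate 1 or 2, and 0 in a fit of the WT arrays alone, in which the 5 adjusted p values were 0.0695 to 0.143. Both counts share 1 estimate of the spread, and without WT IRI replicate 1 they were 4 in KO and 5 in WT.

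Cyp24a1 was brightest in WT IRI kidneys and dimmest in KO IRI kidneys. Its probe, whose sequence is given above, read 0.78, 0.20 and 1.06 on the KO IRI arrays and 1.98, 2.96 and 1.74 on the KO sham arrays. On the WT IRI arrays it read 4.43, 3.87 and 4.63, and on the WT sham arrays 1.55, 1.44 and 2.27. Every KO IRI array was below every other array, every WT IRI array was above every other array, and the sham groups overlapped.

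The log2 fold change of Cyp24a1 from IRI was -1.55 ± 0.37 (SE, n = 3 per group) in KO and 2.55 ± 0.37 in WT. The response of KO minus that of WT was -4.10 ± 0.52, and it was -4.04 without WT IRI replicate 1. After IRI the KO kidneys were 12.3-fold lower than the WT kidneys, whereas the sham groups differed by 0.47 ± 0.37. These values chose the gene and carry no test. Only 1 probe measured Cyp24a1, well above background on all 12 arrays.

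Markers of tubule injury and of blood also had a lower summed level in every KO IRI kidney than in any WT IRI kidney. The summed level of a marker list is the sum over its genes of linear signal relative to the 75th percentile. That sum was 52.7 to 105 in KO IRI and 134 to 352 in WT IRI kidneys for 4 tubule injury genes, and 11.4 to 34.4 and 40.1 to 75.3 for 3 erythrocyte genes. Such sums weigh bright genes most. In WT IRI kidneys the mean log2 level was 7.14 for Lcn2 against 3.32 for Havcr1. For Hba-a2 it was 5.67, against 0.55 for Hbb-b1 and -0.96 for Alas2. The sum of 11 leukocyte genes was 28.3 to 37.4 in KO IRI and 54.4 to 75.6 in WT IRI kidneys, but without the neutrophil genes S100a8 and S100a9 it was 20.8 to 29.2 and 18.0 to 27.5, which overlap. S100a8 differed by -2.58 ± 0.66 (limma adjusted p = 0.0772) and S100a9 by -2.55 ± 0.67 (adjusted p = 0.0827), while 6 of the 11 leukocyte genes had a value above 0 and the median was 0.08. For 6 adipocyte genes it was 25.4 to 30.3 in KO IRI and 30.4 to 59.0 in WT IRI kidneys, and for 10 proximal tubule genes 602 to 686 and 571 to 611. Of these lists, called genes between the injured groups were 1 of 4 in tubule injury (Sprr2f, -5.55 ± 1.16) and 0 in the others. The Sprr2f probe was well above background on only 7 arrays, so the size of its difference is uncertain. The part of the cells of any of these lists in the Cyp24a1 values was not tested.

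Cyp27b1, the activating enzyme, varied widely between mice, most of all in the WT IRI group. It read 0.59, -0.08 and -0.19 in KO IRI and 0.51, -0.37 and 0.34 in KO sham kidneys. In WT IRI kidneys it read 1.57, -1.47 and -1.04, and in WT sham kidneys -0.68, -0.68 and -1.69. The highest WT IRI value is that of replicate 1, and the other replicates of that group lay within the range of the WT sham values.

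No comparison of Cyp27b1 passed. Its IRI response was -0.05 ± 0.68 in KO (95% confidence interval -1.56 to 1.45) and 0.70 ± 0.68 in WT (-0.80 to 2.21), so 2-fold changes of either sign are within the KO interval and a 2-fold rise is within the WT interval. Without WT IRI replicate 1 the WT response was -0.24 ± 0.39. Without that array KO IRI over WT IRI was 1.37 ± 0.39 (limma adjusted p = 0.106), in place of 0.42 ± 0.68. Relative to WT sham kidneys the KO sham kidneys differed by 1.18 ± 0.68 (adjusted p = 0.328), and that value was called without WT IRI replicate 1 (adjusted p = 0.0483; 0.00940 to 0.622 over all alternatives).

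Vdr, the nuclear receptor for active vitamin D, passed in none of the 4 comparisons. Its brighter probe read 4.02, 4.09 and 3.78 in KO IRI and 4.07, 4.29 and 4.02 in KO sham kidneys, which overlap. It read 4.22, 4.11 and 4.60 in WT IRI and 3.88, 3.98 and 3.92 in WT sham kidneys, which do not overlap. The IRI response was -0.16 ± 0.15 in KO and 0.38 ± 0.15 in WT (limma adjusted p = 0.124 in WT), and a second Vdr probe gave the same signs, as the plot by probe shows. The KO response minus that of WT was -0.55 ± 0.21, with a 95% confidence interval of -1.02 to -0.07. Intervals of this difference, here and for the other genes, are not adjusted for the number of genes. They are no test, since the set was chosen by this difference in Cyp24a1.

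**Figure D2:**
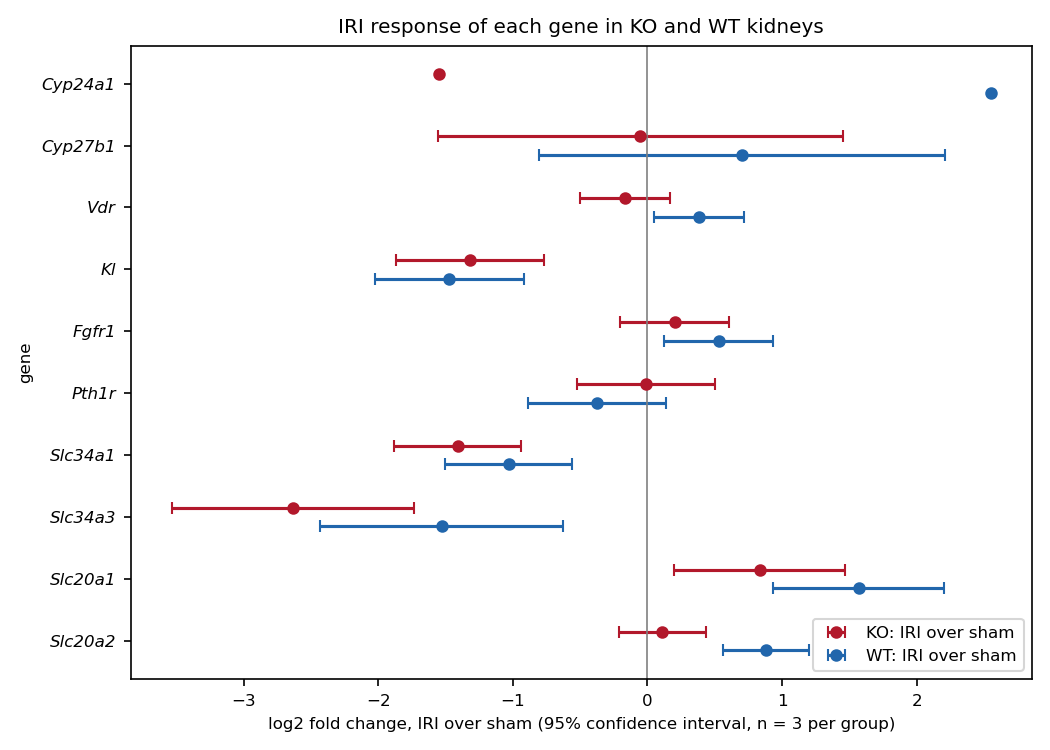
Log2 fold change of IRI over sham for each gene in KO (red, upper) and WT (blue, lower) kidneys, with 95% confidence intervals from the limma fit, n = 3 per group; Cyp24a1 has no interval, since its values chose the set. The points of Cyp24a1 are at -1.55 in KO and 2.55 in WT, and the intervals of Kl, Slc34a1 and Slc34a3 lie below 0 in both genotypes.

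Kl encodes Klotho, the co-receptor that lets FGF23 act on the tubule. Its main probe read 3.71, 4.27 and 4.01 in KO IRI and 5.41, 5.28 and 5.25 in KO sham kidneys. In WT it read 3.19, 4.10 and 3.48 after IRI and 5.21, 5.30 and 4.68 after sham operation. All 6 injured kidneys were below all 6 sham kidneys.

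Kl fell by 2.49-fold in KO (-1.32 ± 0.25, limma adjusted p = 0.0155) and by 2.77-fold in WT (-1.47 ± 0.25, adjusted p = 0.00802). The difference between these responses, KO minus WT, was 0.15 ± 0.35, with a 95% confidence interval of -0.63 to 0.94. The KO call was lost without KO sham replicate 1 (adjusted p = 0.0680), without KO sham replicate 3 (0.0550) or without KO IRI replicate 1 (0.0515), with 0.00100 to 0.0680 over all alternatives. In whole kidney RNA, fewer cells of a type and less RNA per cell cannot be told apart, which holds for every fall given here.

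The second Kl probe, designed to an mRNA for secreted Klotho, was fitted among all kept probes. Whether it reads that form alone was not determined. On the KO IRI arrays it read -0.43, -0.01 and -0.10, and on the KO sham arrays 1.09, 0.67 and 0.94. It read -0.32, -0.25 and -0.30 in WT IRI and 0.59, 0.68 and -0.20 in WT sham kidneys. Groups did not overlap in either genotype, though WT sham replicate 3 lay close to the WT IRI arrays. It fell in KO (-1.08 ± 0.23, limma adjusted p = 0.0248) and did not pass in WT (-0.65 ± 0.23, adjusted p = 0.0949), and the difference of these responses was not tested.

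Fgfr1, the receptor that FGF23 and Klotho bind together, read 2.82, 2.78 and 2.65 in KO IRI and 2.54, 2.64 and 2.46 in KO sham kidneys. In WT IRI kidneys it read 3.40, 2.66 and 2.68, and in WT sham kidneys 2.34, 2.46 and 2.34. Injured and sham kidneys did not overlap in either genotype, but neither response passed (0.20 ± 0.18 in KO and 0.53 ± 0.18 in WT, limma adjusted p = 0.0854 in WT). The WT value was 0.29 without WT IRI replicate 1, the highest array. Without that array KO IRI over WT IRI was 0.08 ± 0.10, in place of -0.16 ± 0.18. Over the 4 Fgfr1 probes the log2 fold changes were -0.02 to 0.42 in KO and 0.34 to 0.58 in WT.

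Pth1r, the parathyroid hormone receptor, was bright and even. It read 6.33, 6.27 and 6.37 in KO IRI, 6.43, 6.27 and 6.30 in KO sham, 5.25, 6.34 and 6.16 in WT IRI and 6.25, 6.32 and 6.29 in WT sham kidneys. One array departed, WT IRI replicate 1, and without it the WT response was -0.04 ± 0.10 in place of -0.37 ± 0.23. The KO response was -0.01 ± 0.23, with a 95% confidence interval of -0.53 to 0.50.

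Slc34a1, the main phosphate cotransporter of the proximal tubule brush border, read 6.57, 6.62 and 6.47 in KO IRI and 8.04, 7.96 and 7.89 in KO sham kidneys. It read 6.98, 6.70 and 5.98 in WT IRI and 7.57, 7.68 and 7.51 in WT sham kidneys. All injured kidneys lay below all sham kidneys, and the injured WT kidneys were the most spread.

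Slc34a1 fell by 2.66-fold in KO (-1.41 ± 0.21, limma adjusted p = 0.00616) and by 2.04-fold in WT (-1.03 ± 0.21, adjusted p = 0.0158). Its second probe gave -1.66 in KO and -1.13 in WT. The KO response minus that of WT was -0.38 ± 0.30, with an interval of -1.04 to 0.29. The WT call was lost without WT sham replicate 1 (adjusted p = 0.0576) or 2 (0.0624), with 0.000148 to 0.109 over all alternatives.

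Slc34a3, the second brush border cotransporter, had the largest fall of the tested genes. Its brighter probe read 3.06, 2.79 and 2.07 in KO IRI and 5.33, 5.30 and 5.19 in KO sham kidneys, which lay far apart. In WT it read 3.11, 2.84 and 1.55 after IRI and 4.20, 4.42 and 3.47 after sham operation, where WT sham replicate 3 lay close to the injured kidneys. The injured groups overlapped, while every KO sham kidney was above every WT sham kidney.

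Slc34a3 fell by 6.20-fold in KO (-2.63 ± 0.41, limma adjusted p = 0.00683) and by 2.88-fold in WT (-1.53 ± 0.41, adjusted p = 0.0372). Its other probe gave -2.68 in KO and -1.42 in WT, where it missed the threshold (adjusted p = 0.0520). KO minus WT, the response differed by -1.11 ± 0.57, with an interval of -2.38 to 0.17. The WT call was lost in 9 of 24 alternatives (adjusted p 0.000465 to 0.143), among them the fits that left out any 1 KO sham array, KO IRI replicate 2, WT IRI replicate 3, or replicate 1 or 2 of WT sham.

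Markers of the proximal tubule, where both cotransporters sit, were lower in the same kidneys. Their summed level was 602 to 686 in KO IRI against 897 to 1044 in KO sham kidneys, and 571 to 611 in WT IRI against 687 to 831 in WT sham kidneys. Of the 10 markers 7 were called lower and 0 higher in KO, with a median of -0.92. In WT 4 were called lower and 0 higher, with a median of -0.51. Of all genes, 4.05% were called lower in KO and 5.90% in WT. Slc7a13, an amino acid transporter, fell by 2.10 in KO and 1.27 in WT on the log2 scale. Slc22a6 went the other way, at 0.06 ± 0.15 in KO and 0.36 ± 0.15 in WT. It passed in neither, but its WT IRI arrays were all above the WT sham arrays. The part of these markers in the falls of Slc34a1 and Slc34a3 was not tested.

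Slc20a1 belongs to the other family of phosphate transporters, found in most cells. It read 3.35, 2.62 and 2.78 in KO IRI and 2.13, 2.04 and 2.07 in KO sham kidneys. In WT IRI kidneys it read 4.24, 3.02 and 3.78, and in WT sham kidneys 1.92, 2.09 and 2.33. Every injured kidney was above every sham kidney of either genotype.

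Slc20a1 rose by 2.97-fold in WT (1.57 ± 0.29, limma adjusted p = 0.0106), while its KO value of 0.84 ± 0.29 did not pass (adjusted p = 0.123). The KO value was called without WT IRI replicate 1 (adjusted p = 0.0477) and without WT IRI replicate 2, with 0.0144 to 0.296 over all alternatives. The KO response minus that of WT was -0.74 ± 0.40, with an interval of -1.64 to 0.16. A second Slc20a1 probe, designed to another transcript variant, was well above background on 1 array and was not kept.

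Slc20a2, its close relative, read 2.92, 3.08 and 2.98 in KO IRI and 2.83, 3.02 and 2.80 in KO sham kidneys, which overlapped. In WT IRI kidneys it read 3.54, 2.99 and 3.42, against 2.42, 2.42 and 2.46 in WT sham kidneys. The low and even WT sham group stood below every other array. Slc20a2 rose by 1.84-fold in WT (0.88 ± 0.15, limma adjusted p = 0.00728) and had a log2 fold change of 0.11 ± 0.15 in KO (adjusted p = 0.720). The difference, KO minus WT, was -0.77 ± 0.21, with an unadjusted interval of -1.23 to -0.31, and was not tested.

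**Figure D3:**
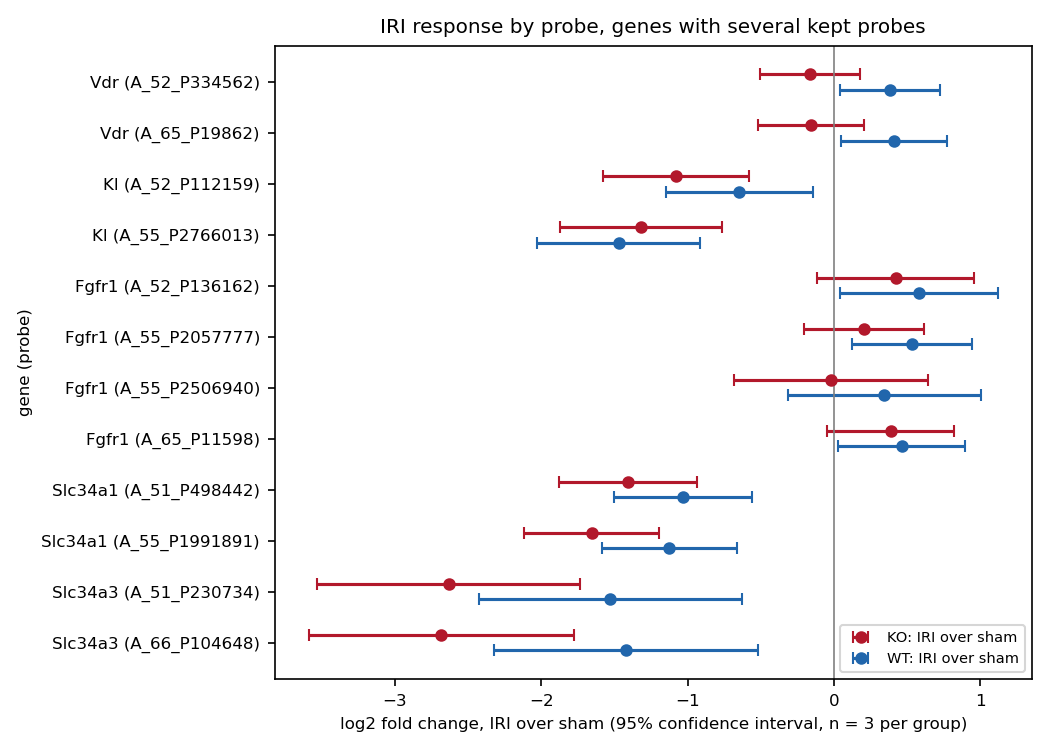
Log2 fold change of IRI over sham for each kept probe of the genes with several kept probes, in KO (red, upper) and WT (blue, lower) kidneys, with 95% confidence intervals, n = 3 per group. Both probes of Slc34a1 and of Slc34a3 lie below 0 in both genotypes. The Kl probe designed to an mRNA for secreted Klotho (A_52_P112159) read -1.08 in KO and -0.65 in WT.

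Knockout and wild-type kidneys were also compared directly, with slide and genotype inseparable. Among the 9 genes tested, 0 were called between KO sham and WT sham kidneys, where 8.85% of all genes were, and 0 between KO IRI and WT IRI kidneys, where 1.93% were (limma). The sham share was 5.12% higher and 3.73% lower, and the injured share 0.910% higher and 1.02% lower. At an unadjusted p under 0.05 there were 2 in sham kidneys, Slc20a2 and Slc34a3, both higher in KO, where 24.3% of all genes passed that threshold, and 2 in injured kidneys, Slc20a1 and Vdr, both lower in KO, where 21.7% of all genes did. KO and WT values had no overlap for 6 of 9 genes in sham kidneys (42.7% of all genes) and for 1 of 9 in injured kidneys (21.7% of all genes). Of all called genes, 57.9% were higher in KO sham kidneys, or 43.1% with quantile normalization, and 47.1% were higher in KO IRI kidneys, or 20.1% with normexp background correction.

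Slc34a3 was the widest of these differences in sham kidneys, at 1.24 ± 0.41 (2.37-fold higher in KO, limma adjusted p = 0.0875). It was called without WT IRI replicate 3 (adjusted p = 0.0356; 0.0113 to 0.258 over all alternatives). Slc20a2 differed by 0.45 ± 0.15 (adjusted p = 0.0856) and was called without WT IRI replicate 1 (adjusted p = 0.0365) or 2, with 0.00420 to 0.210 over all alternatives. In injured kidneys Slc20a1 differed by -0.77 ± 0.29 (adjusted p = 0.168) and Vdr by -0.34 ± 0.15 (adjusted p = 0.221). Slc20a1 was called there without WT IRI replicate 2. After IRI Slc34a1 differed by -0.0032 ± 0.21, with a 95% confidence interval of -0.47 to 0.47, and Slc34a3 by 0.14 ± 0.41 (-0.76 to 1.04). Without WT IRI replicate 1 these values were 0.21 ± 0.18 and 0.44 ± 0.42. Summed proximal tubule markers were 897 to 1044 in KO sham and 687 to 831 in WT sham kidneys, with 2 of 10 called, Slc5a2 and Slc6a19, both higher in KO, and their part in these differences was not tested. The genotype comparisons share their arrays with the IRI comparisons.

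Around these 10 genes a list of 66 further genes of the pathway was counted, of which 59 were measured. In KO IRI against KO sham kidneys 0 were higher and 7 lower, with a median of -0.13. In WT IRI against WT sham kidneys 4 were higher and 9 lower, with a median of -0.13. Between KO sham and WT sham kidneys 2 were higher and 1 lower, and between KO IRI and WT IRI kidneys 0 were higher and 1 lower. The background shares are those given above for the same comparisons. Leaving out 1 array moved the WT IRI count to 3 (replicate 1 or 2 of WT sham), 5 (WT IRI replicate 3) or 8 (replicate 3 of either sham group, or WT IRI replicate 1). It moved the KO IRI count to 4 (KO sham replicate 1 or 2) or 12 (WT IRI replicate 1). The count between sham groups moved to 1 (replicate 1 or 3 of either sham group) or 5 (WT IRI replicate 1), and that between injured groups to 0 (KO IRI replicate 2), 2 (WT sham replicate 3), 3 (KO IRI replicate 3) or 6 (WT IRI replicate 2).

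Of 8 measured genes of vitamin D metabolism and transport, 2 fell in each genotype, the uptake receptors Lrp2 and Cubn. Lrp2 encodes megalin, which takes up filtered vitamin D bound to its carrier. It read 6.22, 6.49 and 6.46 in KO IRI, 7.51, 7.31 and 7.29 in KO sham, 6.05, 6.56 and 6.06 in WT IRI and 7.06, 7.09 and 6.97 in WT sham kidneys. Lrp2 fell by 0.98 ± 0.15 in KO (limma adjusted p = 0.00750) and by 0.81 ± 0.15 in WT (adjusted p = 0.0123) on the log2 scale. These are values of its brightest probe. Its other kept probes had -0.65, -0.43, -1.08 and -0.46 in KO and, in the same order, -0.55, -0.19, -0.81 and -0.43 in WT. Fitted among all kept probes, the probe with -0.43 in KO passed in neither genotype. The probe with -0.46 in KO did not pass there. Cubn, the partner of Lrp2, fell by 0.66 ± 0.12 in KO and 0.57 ± 0.12 in WT. Both are also proximal tubule markers.

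Of 7 further phosphate transporters and scaffold proteins, 2 fell in KO and 3 in WT, and 0 rose. Slc9a3r1, a scaffold that holds Slc34a1 in the brush border, read 4.03, 4.37 and 4.41 in KO IRI against 5.29, 5.06 and 5.17 in KO sham kidneys. In WT it read 4.47, 4.36 and 4.27 after IRI against 5.13, 5.19 and 5.03 after sham operation. It fell by 0.90 ± 0.13 in KO (limma adjusted p = 0.00537) and by 0.75 ± 0.13 in WT (adjusted p = 0.00853). Pdzk1, another such scaffold, fell by 0.88 ± 0.22 in KO (adjusted p = 0.0473) and by 0.90 ± 0.22 in WT (adjusted p = 0.0300). The phosphate exporter Xpr1 fell in WT by 0.53 ± 0.14 (adjusted p = 0.0387) on its brightest probe. Its other kept probes had -0.51, 0.09 and -0.42 in WT, and none of them passed. In KO the brightest probe had -0.39 and the others -0.52, -0.52 and -0.72, and none passed. The scaffolds Slc9a3r2 and Ezr did not pass, with -0.04 ± 0.29 and -0.05 ± 0.17 in KO and -0.42 ± 0.29 and 0.39 ± 0.17 in WT, and the WT IRI arrays of Ezr were all above the WT sham arrays. Calls were lost for Lrp2 in WT without WT sham replicate 1 or 2, and for Cubn in WT without those or WT IRI replicate 3 and in KO without KO sham replicate 1. The WT call of Pdzk1 was lost without WT IRI replicate 3 or any 1 WT sham array. Its KO call was lost in 16 of 23 alternatives, among them leaving out any 1 array but WT IRI replicate 1 or 2. The Xpr1 call was lost in 13 of 23, among them leaving out any 1 array but WT IRI replicate 2 or KO sham replicate 1 or 2.

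Active vitamin D stimulates calcium transport in the distal tubule, of which only RNA was measured here. Of 7 measured genes of this group, 0 were higher and 1 lower in KO, with a median of -0.14. In WT 1 was higher and 1 lower, with a median of -0.07. Trpv5 did not pass, with -0.53 in KO and -0.03 in WT. S100g did not pass either, and its injured and sham kidneys overlapped in both genotypes. Calb1, the calcium-binding protein calbindin, read 5.33, 5.35 and 5.20 in KO IRI against 6.28, 6.20 and 6.10 in KO sham kidneys. In WT it read 4.91, 5.12 and 5.51 after IRI against 6.24, 6.38 and 5.52 after sham operation, where WT sham replicate 3 nearly met the injured kidneys. It fell by 0.90 ± 0.22 in KO (limma adjusted p = 0.0416) and by 0.87 ± 0.22 in WT (adjusted p = 0.0327), calls lost in 12 and in 9 of 23 alternatives. The KO call was lost without WT sham replicate 1 or any 1 KO array, and the WT call without KO sham replicate 1 or 3, WT IRI replicate 1 or 2, or replicate 1 or 2 of WT sham.

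Trpv6, an apical calcium channel and a target of the vitamin D receptor, read -1.85, -2.11 and -1.79 in KO IRI and -2.27, -2.12 and -2.40 in KO sham kidneys. It read -0.13, -0.97 and -0.88 in WT IRI and -2.49, -2.21 and -2.23 in WT sham kidneys. Injured WT kidneys stood above all other arrays. Trpv6 rose by 3.14-fold in WT (1.65 ± 0.21, limma adjusted p = 0.00256) and had a log2 fold change of 0.35 ± 0.21 in KO (adjusted p = 0.380). Trpv6 was the only gene of the list called between the injured groups, lower in KO IRI than in WT IRI kidneys by -1.26 ± 0.21 (adjusted p = 0.0178), and that call was lost without KO IRI replicate 2 (adjusted p = 0.0770; 0.00610 to 0.160 over all alternatives).

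In the calcium sensing group the receptor Casr fell in WT by 0.73 ± 0.19 (limma adjusted p = 0.0370) and Cldn14, a tight junction protein that limits calcium reabsorption, rose in WT by 0.89 ± 0.24 (adjusted p = 0.0388). The Casr call was lost in 9 and the Cldn14 call in 14 of 23 alternatives. Casr missed the threshold without KO sham replicate 1 or 3, WT IRI replicate 1 or 3, or any 1 WT sham array, and Cldn14 without any 1 array but KO IRI replicate 2 or 3. Neither passed in KO.

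Fgf23 itself was measured in these kidneys. It read 0.07, -1.74 and -0.05 in KO IRI and 1.44, 2.66 and 1.50 in KO sham kidneys. In WT it read 0.24, 0.53 and 0.67 after IRI and 2.66, 2.49 and 2.20 after sham operation, so that injured kidneys were lower in both genotypes. Fgf23 fell by 2.44 ± 0.47 in KO (limma adjusted p = 0.0161) and by 1.97 ± 0.47 in WT (adjusted p = 0.0247) on the log2 scale. These values rest on probe A_55_P2169514, with no other kept Fgf23 probe to set beside it. Whether its signal comes from Fgf23 RNA alone was not tested. The KO call was lost without KO sham replicate 2, and the WT call without replicate 1 or 3 of WT IRI or replicate 1 or 2 of WT sham.

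Lctl, a relative of Klotho, read -2.32, -2.25 and -2.42 in KO IRI, -0.51, -0.05 and -0.56 in KO sham, -2.74, -2.43 and -2.68 in WT IRI and -1.46, -1.37 and -2.37 in WT sham kidneys. It fell by 1.95 ± 0.25 in KO (limma adjusted p = 0.00372) and by 0.88 ± 0.25 in WT (adjusted p = 0.0456, a call lost in 12 of 23 alternatives, among them leaving out any 1 array but replicate 2 of WT IRI or KO sham or replicate 3 of WT sham). Lctl was 2.56-fold higher in KO sham than in WT sham kidneys (1.36 ± 0.25, adjusted p = 0.0109), as was the receptor Fgfr3 by 1.91-fold (0.94 ± 0.21, adjusted p = 0.0241). The Fgfr3 call was lost without WT sham replicate 1 or 3 or any 1 KO sham replicate.

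Early response genes of FGF receptors were counted as a group of 6, which other growth factors induce as well. Egr1, an immediate early transcription factor, read -0.31, -1.12 and 0.94 in KO IRI and -1.60, -0.71 and -1.67 in KO sham kidneys. It read 3.96, 1.16 and 2.94 in WT IRI and -0.15, -0.06 and -0.05 in WT sham kidneys. All WT IRI arrays exceeded every other array. Egr1 rose by 6.84-fold in WT (2.77 ± 0.67, limma adjusted p = 0.0265), a call lost without replicate 1 or 3 of WT IRI or without any 1 array of WT sham. Its KO value was 1.17 ± 0.67 (adjusted p = 0.356).

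Spry2, a feedback inhibitor of receptor tyrosine kinases, read 0.19, 0.13 and 0.43 in KO IRI, 0.14, 0.37 and 0.21 in KO sham, 0.95, 0.59 and 1.102 in WT IRI and 0.06, 0.04 and -0.24 in WT sham kidneys. The WT IRI group lay above all others. By this probe Spry2 rose by 1.90-fold in WT (0.93 ± 0.16, limma adjusted p = 0.00834) and had a log2 fold change of 0.01 ± 0.16 in KO. A second, dimmer Spry2 probe did not share this pattern. It had 0.33 ± 0.19 in WT and 0.46 ± 0.19 in KO, and neither passed. For KO IRI over WT IRI it had 0.37 ± 0.19, against -0.63 ± 0.16 for the brighter probe, which stands for Spry2 below. Between the injured groups 0 of the 6 genes were called, with a median of -0.57 for KO IRI over WT IRI, and 6 of 6 were lower at an unadjusted p under 0.05, as were 9.75% of all genes. Between the sham groups 1 of the 6 was higher and 2 were lower in KO at that threshold, where 16.7% and 7.62% of all genes were. The smallest adjusted p of the 6 was that of Egr1 (-2.85 ± 0.67, adjusted p = 0.0627).

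Gc, the carrier that binds vitamin D in blood, read 4.68, 4.36 and 4.71 in KO IRI, 4.24, 3.73 and 4.08 in KO sham, 4.95, 4.80 and 3.99 in WT IRI and 4.95, 4.96 and 5.61 in WT sham kidneys. It was lower in KO sham than in WT sham kidneys (-1.16 ± 0.27, limma adjusted p = 0.0299), a call lost without any 1 array of these groups. No gene was called in any of the 4 comparisons among 7 vitamin D receptor partners, such as Rxra, among 5 genes of parathyroid hormone signalling, such as Gnas, or among 7 measured phosphate and mineral regulators, such as Enpp1. At an unadjusted p under 0.05 these were 0 receptor partners, 1 signalling gene, higher in KO sham than in WT sham kidneys, and from 2 to 4 regulators per comparison, where 21.0% to 29.1% of all genes passed that threshold.

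**Figure D4:**
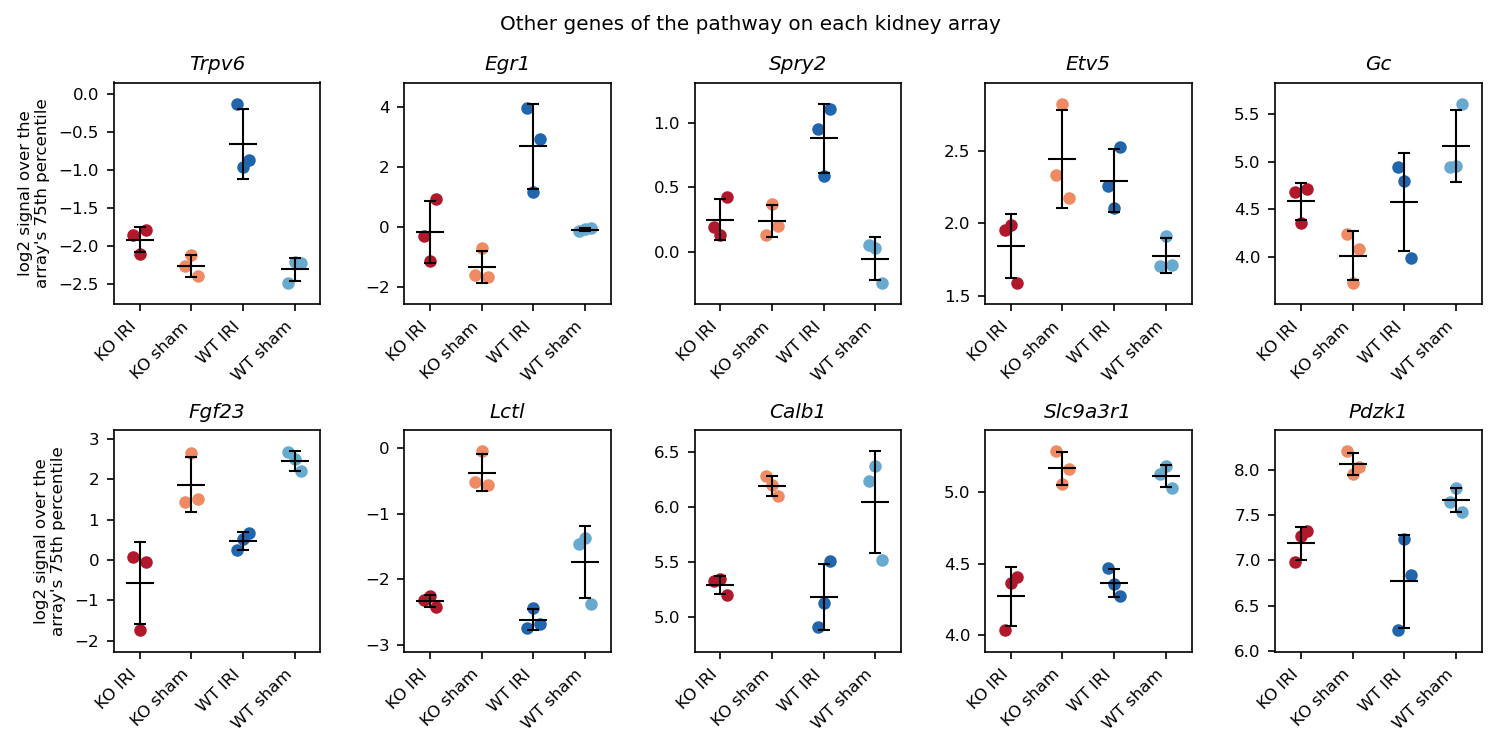
Level of 10 further pathway genes on each array (log2 signal over the 75th percentile of the array) by group, with 3 points per group, the mean as a bar and the SD as whiskers; each panel has its own scale. Trpv6, Egr1 and Spry2 are highest on the WT IRI arrays, and Slc9a3r1 and Pdzk1 are lower on the IRI arrays of both genotypes.

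The genes whose pattern over the 12 arrays was most like that of Cyp24a1 and of Kl were found among 14699 genes with an ordinary symbol that were well above background on all arrays. Nearest to Cyp24a1 were Hpx (Pearson r = 0.92), which encodes the heme carrier hemopexin, Stfa2 (0.90), Numb (0.89), Ubash3b (0.88) and Defb42 (0.88). Hpx read -5.06, -5.77 and -5.13 in KO IRI, -4.84, -4.77 and -4.95 in KO sham, -4.38, -4.41 and -4.40 in WT IRI and -5.11, -5.40 and -4.91 in WT sham kidneys. Nearest to Kl were Slc6a20b, which encodes an amino acid transporter, Slc46a3, Entpd8, Sgsm2 and Ift27, all at 0.99. These correlations describe 12 arrays that fall into 4 groups, and they were picked as the highest of many.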

How the data were processed

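Per the file headers, each deposited scanner file holds spot intensity values from Agilent Feature Extraction 10.7.1.1, background-corrected within the array and not scaled between arrays. The authors' deposited log2 table, with a median of 5.71 on every array, served as an alternative. It correlated with the scanner signals at r of 0.9995 or more on every array, so its genes are not centred and its direction is theirs, while its exact normalization was not stated. Its calls were close to those with quantile normalization of the scanner signals. The numbers called were 3447 against 3446 genes in WT IRI over WT sham and 1633 against 1624 in KO IRI over KO sham. These alternatives are thus nearly the same, though they are counted separately. The submitters' processing notes name limma, with no version. Probe coordinates are those of the files (mm9).

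Control spots and outlier-flagged spots were left out, spots of a probe were averaged, and log2 processed signal had the array's 75th percentile subtracted. A probe was kept if well above background on at least 3 of 12 arrays, which left 39449 of 56605 probes. A gene was represented by its brightest kept probe. limma 3.58.1 in R 4.3.3 fitted 4 group means over 12 arrays, with 8 residual degrees of freedom, two-sided tests, Benjamini-Hochberg adjustment over 25947 genes and a threshold of 0.05. Errors are standard errors, and precision is limited by 3 arrays per group. The fit was tested on simulated data.

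The 10 genes, the pathway list and the marker lists were chosen with earlier results of these data known. The text names all 10 genes, listed pathway genes past the threshold (at most 3 per role and comparison, by size), and the 5 genes most like Cyp24a1 and Kl over the arrays. Etv5 and Hpx values were added after they were seen. Promoter sequences are from RefSeq (GRCm38.p6). Alternatives were other background corrections, scalings, filters, probe summaries, array weights, a replicate or slide block, fits of 2 groups and leaving out each array.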

Additional observations from a re-analysis of the deposited data

Results flagged for a closer look

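In 3 of the 69 genes examined (the 10 genes and 59 of the pathway list), every KO kidney moved one way after IRI and every WT kidney the other way, relative to the sham kidneys of the same genotype. The difference between the responses was not tested for any of them. How many of all genes show this pattern was not counted, so 3 of 69 is no result about this set. Groups without overlap, in either direction, were found for 35.7% of all genes in KO and 32.3% in WT. For Cyp24a1 the response was -1.55 in KO and 2.55 in WT, a difference of -4.10 on the log2 scale (-4.36 to -3.73 over 22 alternatives), and this gene was known to stand out before it was examined here. For Etv5, a transcription factor induced by FGF receptors, it was -0.60 in KO and 0.52 in WT, a difference of -1.11 (-1.24 to -0.92 over 21 alternatives). Etv5 read 1.96, 1.99 and 1.59 in KO IRI, 2.33, 2.82 and 2.18 in KO sham, 2.25, 2.10 and 2.53 in WT IRI and 1.71, 1.92 and 1.71 in WT sham kidneys. For Gc it was 0.57 in KO and -0.59 in WT, a difference of 1.16 (0.87 to 1.39 over 21 alternatives), where WT IRI replicate 1 and WT sham replicate 1 both read 4.95.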

How the results depend on the processing

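No value of the 10 genes that passed the test changed sign under any alternative. Of the 9 genes tested, the number called for WT IRI over WT sham was 5, with 4 to 7 under most alternatives, 0 with only the 2 groups fitted, and 3 to 6 when 1 array was left out. For KO IRI over KO sham it was 3, and 2 to 4 under every alternative, leaving out 1 array included. For KO sham over WT sham it was 0, then 1 with the replicate block, 3 with array weights, 3 with only the 2 groups fitted and 0 to 2 when 1 array was left out. For KO IRI over WT IRI it was 0, then 2 with array weights and 0 to 1 when 1 array was left out. Same-numbered arrays of 2 groups had correlations of -0.27 to 0.15 in their deviations from the group means, so the numbers do not pair the mice; the replicate block called Slc34a3 in KO sham over WT sham (adjusted p = 0.0262). With the slide as a fixed block the IRI counts were 5 and 3 again, as its construction requires. For the 59 pathway genes the counts over all alternatives were 2 to 23 (WT IRI), 4 to 18 (KO IRI), 1 to 22 (KO sham over WT sham) and 0 to 6 (KO IRI over WT IRI), the highest of the first 3 with array weights; these alternatives were chosen after seeing the data. Where the cause of a change is not in the construction of the alternative, the cause was not tested.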
